A study of Mus musculus with 10 samples.

Results

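The genes of potassium channels were examined in RNA-seq of the PFC (prefrontal cortex) of *Zbtb16* mutant (KO) mice and of wild-type (WT) mice. They were taken as all genes of the count table whose symbol starts with Kcn, with the exception of *Kcnj10*, which gave 93 of 22000 genes. Of these, 77 passed a filter on low counts and were tested among 14344 genes. The other 16 were at 0.557 CPM (counts per 1000000 counts of the library) or less in every mouse. The samples were 5 *Zbtb16* KO and 5 WT mice, labelled male and aged 7 weeks, with 1 RNA library per mouse. The line was B6.C3-*Zbtb16* lu/J, whose *luxoid* (*lu*) allele is a germline nonsense point mutation present in every cell. The KO mice were homozygous for it, and no other allele, agent or treatment is named.

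Libraries held between 30220122 and 51231439 counts, so that 3 counts, used here as the floor of detection, corresponded to 0.0586 to 0.0993 CPM. *Zbtb16* itself was at 47.3 ± 4.89 CPM in KO mice and 79.1 ± 7.49 CPM in WT mice (SD, n = 5 each), without overlap between the groups (exact two-sided permutation test, p = 0.00794, the smallest possible with 5 against 5). KO mouse 3 had 1 count over 4 Y-linked genes, against 4376 to 8182 in the other mice, and its label says male. RNA integrity (RIN) was 8.3 or lower in 2 KO and 2 WT mice and 9.5 or higher in the other 6. All 5 markers of excitatory neurons were detected, with sums of 7101 to 8484 CPM in KO mice and 7027 to 7618 CPM in WT mice. The 6 choroid plexus markers summed to 1.69 to 3.95 CPM over all mice. In bulk tissue, fewer cells of a type and less RNA per cell cannot be told apart.

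Potassium channels let potassium leave neurons and glia, and they set the resting potential, end action potentials and shape repetitive firing. Most are built from pore-forming alpha subunits, which voltage, calcium, sodium, G proteins or nucleotides open or close depending on the family. Auxiliary subunits bind to these and alter their gating or their transport to the membrane. In the cortex, Kv1 channels sit along axons, Kv2 channels around the soma, Kv3 channels in fast-spiking interneurons and Kv4 channels in dendrites. KCNQ channels carry the M-current that restrains firing, and inward rectifiers and tandem-pore (K2P) channels hold the resting potential.

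The stretch of coding sequence that these genes share is the selectivity filter, the narrow part of the pore, whose signature is a glycine, a tyrosine or phenylalanine and a second glycine. It is shown for the 9 pore-forming genes among the 12 with the smallest p in the comparison of KO with WT mice, to show which of them carry it and in which form. Each run is 5 codons of the coding strand, and the capitals mark the 3 signature codons:
Kcnb2: actgtgGGCTACGGT
Kcnc4: acgcttGGCTATGGG
Kcns2: acagttGGGTACGGA
Kcnh5: accataGGATTTGGA
Kcnj2: accattGGCTATGGT
Kcnq5: accattGGCTATGGA
Kcnj16: accattGGATACGGT
Kcnn3: tccattGGCTATGGG
Kcna5: actgtaGGCTACGGG

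The runs come from Gencode M21 transcripts on GRCm38 and all lie in coding exons. They are at chr1:15710046-15710060 (+) in exon 2 of *Kcnb2*, chr3:107447799-107447813 (-) in exon 2 of *Kcnc4* and chr15:34839612-34839626 (+) in exon 2 of *Kcns2*. That of *Kcnh5* is at chr12:75087466-75087480 (-) in exon 7, that of *Kcnj2* at chr11:111072207-111072221 (+) in exon 2 and that of *Kcnq5* at chr1:21487307-21487321 (-) in exon 6. Those of *Kcnj16*, *Kcnn3* and *Kcna5* are at chr11:111024904-111024918 (+) in exon 2, chr3:89645512-89645526 (+) in exon 4 and chr6:126533745-126533759 (-) in exon 1. *Kcnh5* carries the phenylalanine form, *Kcnn3* starts with a serine codon, and the other 7 carry the tyrosine form after a threonine codon.

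The signature was searched in frame on the coding strand of all 19597 genes with a coding sequence, as a threonine or serine codon, any codon, a glycine codon, a tyrosine or phenylalanine codon and a glycine codon. It was present in 76 of the 93 potassium channel genes (81.7%) and in 2.78% of all genes. The 17 without it were the *Kcnab*, *Kcne*, *Kcnip* and *Kcnmb* genes and *Kcnrg*, all of which encode auxiliary subunits or regulators. All 8 *Kcnh* genes and both *Kcnt* genes held the phenylalanine form alone, and 3 of 4 *Kcnn* genes held the form that starts with serine. A match describes the letters only.

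Levels were compared between genes as CPM per kilobase of exon (the union of all annotated exons), since longer transcripts give more reads. In WT mice the most abundant was *Kcnab2*, the beta2 subunit of Kv1 channels, at 85.7 ± 4.77 CPM per kilobase (SD, n = 5). It was followed by *Kcnj4* (62.5 ± 4.49), *Kcnk1* (59.6 ± 4.29), *Kcnj9* (53.8 ± 3.54) and *Kcnip3* (49.6 ± 1.96), in the same unit. *Kcnab2* lay above all 5 WT values of *Kcnj4*, whereas *Kcnj4*, *Kcnk1*, *Kcnj9* and *Kcnip3* overlapped from each to the next. Also among the 10 highest were *Kcnf1* (42.2 ± 4.94), *Kcna2* (38.7 ± 2.7) and *Kcnv1* (34.2 ± 3.05), each of which overlapped the one named before it. The lowest tested gene was *Kcnq1*, the cardiac KCNQ subunit, at 0.0978 ± 0.0544 CPM per kilobase. In all, 33 genes were at 10 CPM per kilobase or above and 10 were under 1. With the longest transcript in place of the exon union, 8 of the top 10 were the same genes.

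**Figure D1:**
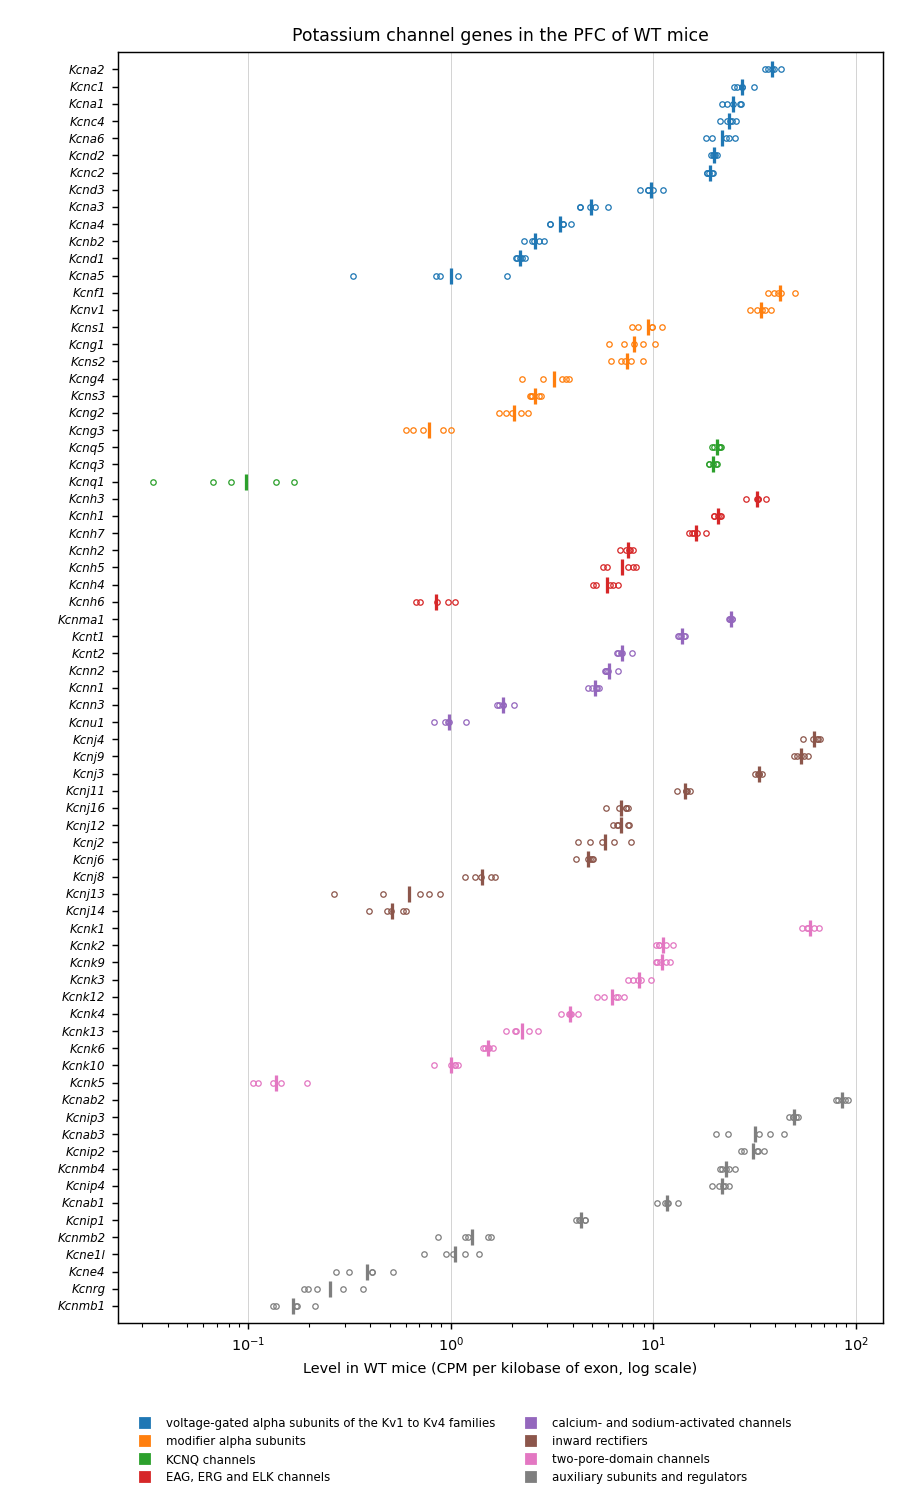
Level of 73 of the 77 tested potassium channel genes in the 5 WT mice, in CPM per kilobase of exon on a log axis, ordered by level within each class (colours). Circles are mice and vertical marks are means. *Kcnab2* is highest at 85.7 CPM per kilobase and *Kcnq1* lowest at 0.0978 CPM per kilobase.

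Summed over its members in WT mice, the Kv1 to Kv4 alpha subunits reached 271 ± 5.96 CPM per kilobase, the auxiliary subunits 263 ± 14.8 and the inward rectifiers 191 ± 3.81. Modifier subunits, which open no channel alone and join Kv2 subunits, summed to 110 ± 6.06, and K2P channels to 105 ± 4.25. The EAG, ERG and ELK channels (*Kcnh*) summed to 91.0 ± 4.10, KCNQ channels to 79.1 ± 1.05 and the calcium- and sodium-activated channels to 59.0 ± 0.491. Single members made up much of several sums. The GIRK channels, which open to G protein beta-gamma subunits, were *Kcnj9*, *Kcnj3* (33.2 ± 1.05) and *Kcnj6* (4.76 ± 0.355), while *Kcnj5* did not pass the filter. *Kcnma1*, the BK channel, was at 24.1 ± 0.385 CPM per kilobase, beside its neuronal beta4 subunit *Kcnmb4* at 23.0 ± 1.61.

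KO mice were set against WT mice by edgeR's quasi-likelihood test, and p-values were adjusted by Benjamini-Hochberg over all 14344 genes. The model held 3 surrogate variables beside genotype, which are values per library that sva derives from the expression data to absorb other differences. They can overlap with labelled traits or single mice. The first was 0.874 in KO mouse 5, which had the lowest RIN (8.1), and -0.299 to 0.114 in the other mice. The second was highest in KO mouse 2, at 0.726. No potassium channel gene had an adjusted p under 0.05, so 0 of 77 were called, against 121 of all genes tested (0.844%, with 0.6% higher and 0.244% lower in KO mice). Of the 77, 14 had an unadjusted p under 0.05 (18.2%, against 10.6% of all genes), of which 4 were higher in KO mice (5.51% of all genes) and 10 were lower (5.1% of all genes). Without surrogate variables, 13 of 77 had an unadjusted p under 0.05 (16.9%, against 8.02% of all genes). Again 0 of 77 were called in that fit, against 0.209% of all genes. With shares this small over all genes, the 0 members called in either fit say little. With DESeq2 in place of edgeR, 2 of 77 were called, *Kcnab1* and *Kcnb2*, against 233 of all 14344 genes. No member had CPM values without overlap between the genotypes, as 1.63% of all genes did. The log2 fold change of KO over WT was below 0 for 54 of 77 (70.1%, against 51.9% of all genes), with a median of -0.04 against -0.00 over all genes. Over the other settings with the same filter and all mice, 51 to 57 of 77 were below 0.

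The intervals limit how large a difference could have been missed only under the fit with surrogate variables. Some estimates from the fit without surrogate variables lay outside these intervals and others inside. The log2 fold change of *Kcnab3* was -0.30 without surrogate variables, against an interval of -0.25 to 0.21. That of *Kcnc4* was 0.18 without them, inside its interval of 0.06 to 0.25. The 95% interval of the fold change lay within 1.25-fold in either direction for 50 of 77 members (64.9%, against 67.8% of all genes) and within 1.5-fold for 64 (83.1%, against 83.5% of all genes). The narrowest were those of abundant genes, such as *Kcnma1* with a log2 fold change of 0.01 (-0.05 to 0.08) and *Kcnq3*, a subunit of the M-current channel, with 0.03 (-0.03 to 0.10). Among the widest were *Kcnq1* with -0.43 (-1.66 to 0.80) and *Kcnk5*, a K2P channel, with -0.07 (-1.09 to 0.94), both under 1 CPM in most mice. For these a difference was not detectable at this depth.

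**Figure D2:**
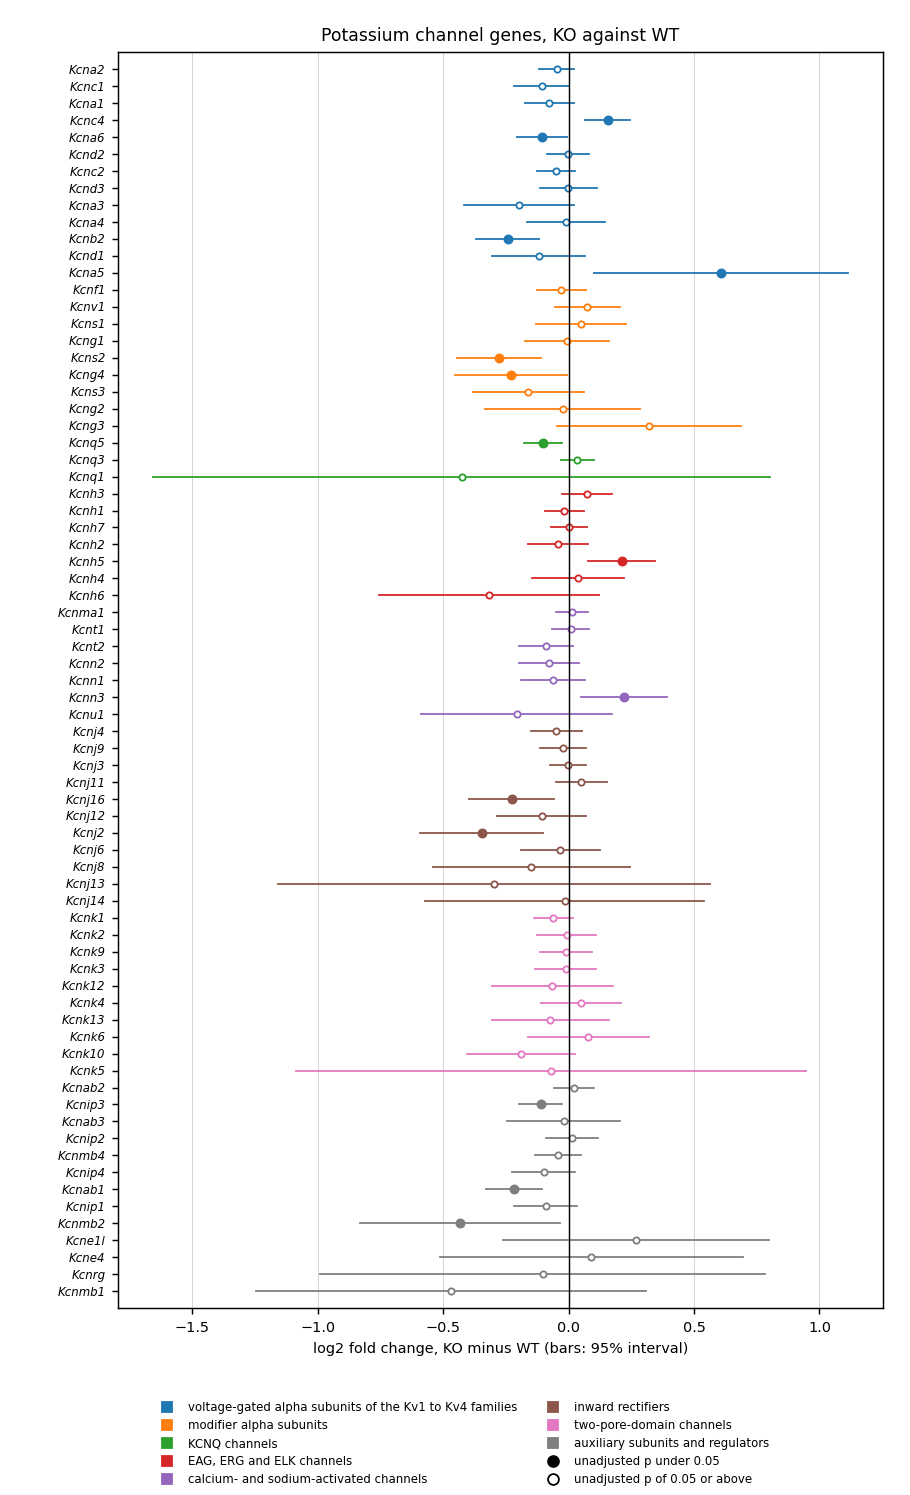
Log2 fold change (KO minus WT) of 73 of the 77 tested potassium channel genes with the 95% interval from edgeR's quasi-likelihood fit, grouped by class (colours) in the order of their WT level. Filled points have an unadjusted p under 0.05 (14 genes, 10 of them left of 0), and none had an adjusted p under 0.05.

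Among the Kv1 to Kv4 alpha subunits (17 genes, 15 tested), 12 had a log2 fold change below 0 and 3 above, with a median of -0.05 (without surrogate variables 11 below 0). *Kcnb2*, a delayed rectifier of the Kv2 family, was at 34.8, 32.8, 38.8, 29.4 and 35.9 CPM in KO mice 1 to 5. Its levels in WT mice 1 to 5 were 39.2, 35.1, 41.5, 43.8 and 38.2 CPM. KO mouse 4 was the lowest of all and WT mouse 4 the highest, and the groups overlapped, with KO mice 3 and 5 above WT mouse 2. The log2 fold change was -0.24 ± 0.06 (SE), with an adjusted p of 0.0776 (edgeR's quasi-likelihood test, Benjamini-Hochberg) and an exact two-sided permutation p of 0.0556. In the same edgeR test it passed the threshold when KO mouse 2, KO mouse 5 or WT mouse 5 was left out, with adjusted p from 0.0276 to 0.284 over the 10 fits without 1 mouse.

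The Kv3 family gives fast-spiking cells their short action potentials. *Kcnc4* was at 99.2, 103, 96.8, 90.0 and 103 CPM in KO mice 1 to 5. In WT mice 1 to 5 it was at 89.9, 85.2, 94.2, 87.7 and 78.3 CPM. KO mice 1, 2, 3 and 5 were above every WT mouse, and KO mouse 4 lay within the WT range. Its log2 fold change was 0.16 ± 0.04 (SE), with an adjusted p of 0.127 (edgeR's quasi-likelihood test, Benjamini-Hochberg) and an exact permutation p of 0.0159. The Kv3 genes *Kcnc1* and *Kcnc2* had log2 fold changes below 0, at -0.11 and -0.05. *Kcnc1* was at 234 ± 12 CPM in KO and 261 ± 22.8 CPM in WT mice (exact permutation p = 0.0397) and *Kcnc2* at 128 ± 5.54 and 136 ± 3.74 CPM (exact permutation p = 0.0476). Both intervals from edgeR included 0. Markers of parvalbumin interneurons, where Kv3 channels are abundant, were 5 of 5 detected and none at 0, with 4 of 5 fold changes below 0 and none called. The marker above 0 was *Tac1*, which had the smallest p of the 5, with a log2 fold change of 0.36 (adjusted p = 0.0916 by edgeR). It was at 16.9 ± 1.89 CPM in KO mice and 12.6 ± 2.54 CPM in WT mice. The 5 markers summed to 203 to 258 CPM in KO mice and 222 to 293 CPM in WT mice, and their part in the Kv3 values was not tested.

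In the Kv1 family, the axonal subunits *Kcna1* and *Kcna2* were at 104 ± 15.3 and 421 ± 28.5 CPM in KO mice against 118 ± 11.1 and 460 ± 32.1 CPM in WT mice. Their log2 fold changes were -0.08 (95% interval -0.18 to 0.02) and -0.05 (-0.12 to 0.02). *Kcna5*, at the low end of the class, was at 2.76, 4.17, 3.48, 5.69 and 5.76 CPM in KO mice and at 2.42, 3.10, 2.53, 0.943 and 5.43 CPM in WT mice. WT mouse 4 was the lowest, and WT mouse 5 was above KO mice 1, 2 and 3. At 0.61 ± 0.24 (SE), its log2 fold change was the most positive of all members, with an adjusted p of 0.344 (edgeR's quasi-likelihood test, Benjamini-Hochberg). *Kcna6*, named after its values were seen since it had an unadjusted p under 0.05, had -0.11 on the log2 scale (adjusted p = 0.433 by edgeR). In Gencode M21, 39.6% of its exon bases lie on an antisense gene on the other strand. *Kcnd2* and *Kcnd3*, the dendritic A-type channels, both had a log2 fold change of -0.00, with intervals of -0.09 to 0.08 and -0.12 to 0.11.

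Of the modifier subunits (10 genes, 9 tested), 6 had a log2 fold change below 0 and 3 above, with a median of -0.02 (without surrogate variables 5 below 0). *Kcns2* was at 33.6, 32.5, 32.7, 36.8 and 35.9 CPM in KO mice 1 to 5. Its values in WT mice 1 to 5 were 43.6, 34.8, 40.4, 38.7 and 50.0 CPM. WT mouse 5 was the highest, and the groups overlapped through WT mouse 2, which lay below KO mice 4 and 5. *Kcns2* had a log2 fold change of -0.28 ± 0.08 (SE), with an adjusted p of 0.140 (edgeR's quasi-likelihood test, Benjamini-Hochberg) and an exact permutation p of 0.0238. Without WT mouse 2 its adjusted p was 0.00487 in the same test, the only 1 of the 10 fits without 1 mouse in which it passed (range 0.00487 to 0.413). WT mouse 5 also had the highest sum of striatal markers, 583 CPM against 285 to 472 CPM in the other 9 mice. With a score of these markers in place of the surrogate variables, the adjusted p of *Kcns2* was 0.130. *Kcnf1* and *Kcnv1*, the most abundant modifiers, had log2 fold changes of -0.03 (-0.13 to 0.07) and 0.07 (-0.06 to 0.21). *Kcng4*, named after its values were seen, had -0.23 on the log2 scale (adjusted p = 0.454 by edgeR), with its lowest value, 5.04 CPM, in KO mouse 5.

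All 5 KCNQ genes were tested, 2 with a fold change below 0 and 3 above (without surrogate variables 3 below 0). *Kcnq5* was at 153, 128, 146, 149 and 159 CPM in KO mice and at 165, 153, 162, 167 and 150 CPM in WT mice. KO mouse 2 was the lowest, and KO mice 1 and 5 lay within the WT range. This gave a log2 fold change of -0.10 ± 0.04 (SE), with an adjusted p of 0.276 (edgeR's quasi-likelihood test, Benjamini-Hochberg).

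Of the EAG, ERG and ELK channels (8 genes, 7 tested), 3 were below 0 and 4 above, and without surrogate variables 5 were below 0. *Kcnh5*, an EAG channel, was at 30.7, 25.6, 28.9, 35.7 and 31.1 CPM in KO mice and at 32.4, 33.4, 24.0, 23.0 and 30.5 CPM in WT mice. WT mice 3 and 4 were the lowest, while WT mice 1 and 2 were above all KO mice but KO mouse 4. Its log2 fold change was 0.21 ± 0.06 (SE) with surrogate variables (adjusted p = 0.170, edgeR's quasi-likelihood test) and 0.09 without them (adjusted p = 0.883), and the exact permutation p was 0.532. In the 10 fits without 1 mouse its adjusted p by the same edgeR test lay between 0.0363 and 0.494, and it passed in 1, that without KO mouse 2. The abundant *Kcnh1*, *Kcnh3* and *Kcnh7* had log2 fold changes of -0.02, 0.07 and 0.00.

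Calcium- and sodium-activated channels (8 genes, 7 tested) had 4 fold changes below 0 and 3 above. *Kcnn3*, an SK channel that calcium opens through calmodulin, was at 20.5, 32.6, 21, 20.3 and 27.0 CPM in KO mice and at 19.1, 19.0, 18.1, 17.7 and 21.4 CPM in WT mice. KO mice 2 and 5 stood above all others, and KO mice 1, 3 and 4 were below WT mouse 5. A log2 fold change of 0.22 ± 0.08 (SE) was found, with an adjusted p of 0.313 (edgeR's quasi-likelihood test, Benjamini-Hochberg) and an exact permutation p of 0.0317. *Kcnn2*, another SK channel, had -0.08 (-0.20 to 0.04), and *Kcnt1*, a sodium-activated channel, 0.01 (-0.07 to 0.08).

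Inward rectifiers (14 genes, 11 tested) had 10 fold changes below 0 and 1 above, with a median log2 fold change of -0.05 (without surrogate variables 9 below 0). *Kcnj2*, a strong rectifier of the Kir2 family, was at 25.2, 23.9, 21.8, 26.3 and 30.4 CPM in KO mice and at 30.4, 26.6, 34.8, 23.3 and 42.2 CPM in WT mice. WT mouse 5, which had the highest striatal marker sum, was the highest here too, and WT mouse 4 lay below 4 of the KO mice. The log2 fold change was -0.35 ± 0.11 (SE), with an adjusted p of 0.241 (edgeR's quasi-likelihood test, Benjamini-Hochberg). *Kcnj4*, the abundant Kir2 channel of forebrain neurons, had a log2 fold change of -0.05 (-0.15 to 0.05).

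*Kcnj16*, which joins the glial channel subunit encoded by *Kcnj10*, was at 25.3, 30.9, 23.3, 19.0 and 18.2 CPM in KO mice and at 29.0, 28.9, 26.8, 29.4 and 23.0 CPM in WT mice. KO mice 4 and 5 were the lowest, and KO mouse 2 was the highest of all 10. The log2 fold change was -0.23 ± 0.08 (SE), with an adjusted p of 0.276 (edgeR's quasi-likelihood test, Benjamini-Hochberg). The astrocyte markers, 6 of 6 detected and none called, summed to 4191 to 5011 CPM in KO mice and 4413 to 4958 CPM in WT mice. Only 1 of 6 had a fold change below 0. This was *Slc1a2* (-0.05 on the log2 scale), which made up most of the sum, at 3429 CPM in KO and 3555 CPM in WT mice. The smallest p of the 6 was that of *Slc1a3*, with a log2 fold change of 0.14 (adjusted p = 0.167 by edgeR). The part of astrocytes in the *Kcnj16* values was not tested. The GIRK genes *Kcnj3*, *Kcnj6* and *Kcnj9* had log2 fold changes of -0.00, -0.03 and -0.02. Together with *Kcnj5*, which did not pass the filter, these 4 genes summed to 426 ± 6.55 CPM in KO and 440 ± 18.7 CPM in WT mice. *Kcnj11*, the neuronal pore of the KATP channel, was the only inward rectifier above 0 in this fit, at 0.05 (-0.05 to 0.15). *Kcnj13* shares 49.1% of its exon bases with *Gigyf2* on the other strand, and since no source says whether counting used strand, its 0.787 CPM in KO and 0.788 CPM in WT mice are uncertain. *Kcnj3* likewise shares 31.1% and *Kcnmb4* up to 20.8% of exon bases with a noncoding gene on the other strand.

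Among K2P channels (14 genes, 10 tested), 8 were below 0 and 2 above (without surrogate variables 7 below 0), and none had an unadjusted p under 0.05. *Kcnk1* was at 119 ± 15.3 CPM in KO and 133 ± 9.60 CPM in WT mice, with a log2 fold change of -0.06 (-0.14 to 0.02). The stretch-activated *Kcnk2* and the acid-sensitive *Kcnk9* both had -0.01, with intervals of -0.12 to 0.11 and -0.12 to 0.09. In *Kcnk9*, KO mouse 5 was at 188 CPM and the other 9 mice were at 122 to 149 CPM.

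Auxiliary subunits and regulators (17 genes, 13 tested) had 9 fold changes below 0 and 4 above, with a median log2 fold change of -0.09 (without surrogate variables 11 below 0, median -0.12). The smallest p of all members was that of *Kcnab1*, the beta1 subunit that gives Kv1 channels fast inactivation. It was at 81.0, 90.5, 86.3, 94.4 and 75.3 CPM in KO mice 1 to 5. In WT mice 1 to 5 it was at 90.0, 102, 101, 98.7 and 114 CPM. KO mouse 5 was the lowest and WT mouse 5 the highest, and the groups overlapped only through WT mouse 1, which lay below KO mice 2 and 4. The log2 fold change was -0.22 ± 0.05 (SE), with an adjusted p of 0.0631 (edgeR's quasi-likelihood test, Benjamini-Hochberg) and an exact permutation p of 0.0238. It passed the threshold in the same edgeR test when KO mouse 2, KO mouse 4, KO mouse 5, WT mouse 1 or WT mouse 2 was left out, with adjusted p from 0.00255 to 0.420 over the 10 fits without 1 mouse, and it was at 0.306 without surrogate variables.

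Of the other beta subunits of Kv1, *Kcnab2* had a log2 fold change of 0.02 (-0.06 to 0.10), at 467 ± 21.9 CPM in KO and 478 ± 26.6 CPM in WT mice. *Kcnab3* was at -0.02 (-0.25 to 0.21) with surrogate variables. Without them, all 3 *Kcnab* genes were below 0, with a median log2 fold change of -0.24. In the fit of high-RIN mice alone, *Kcnab3* had the smallest adjusted p of the members, 0.394 by edgeR's quasi-likelihood test. The KChIP proteins bind Kv4 channels and calcium. *Kcnip3* was at 165, 173, 155, 164 and 140 CPM in KO mice and at 179, 174, 185, 175 and 166 CPM in WT mice. KO mice 1, 3, 4 and 5 were below every WT mouse, and KO mouse 2 lay among them. Its log2 fold change was -0.11 ± 0.04 (SE), with an adjusted p of 0.298 (edgeR's quasi-likelihood test, Benjamini-Hochberg) and an exact permutation p of 0.0159. *Kcnip2*, another KChIP, had 0.01 (-0.09 to 0.12). *Kcnmb2*, a BK channel beta subunit, was at 2.92 ± 0.476 CPM in KO and 3.98 ± 0.911 CPM in WT mice, with a log2 fold change of -0.43 ± 0.19 (SE) and an adjusted p of 0.420 (edgeR's quasi-likelihood test). *Kcnmb4* had -0.04 (-0.13 to 0.05).

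**Figure D3:**
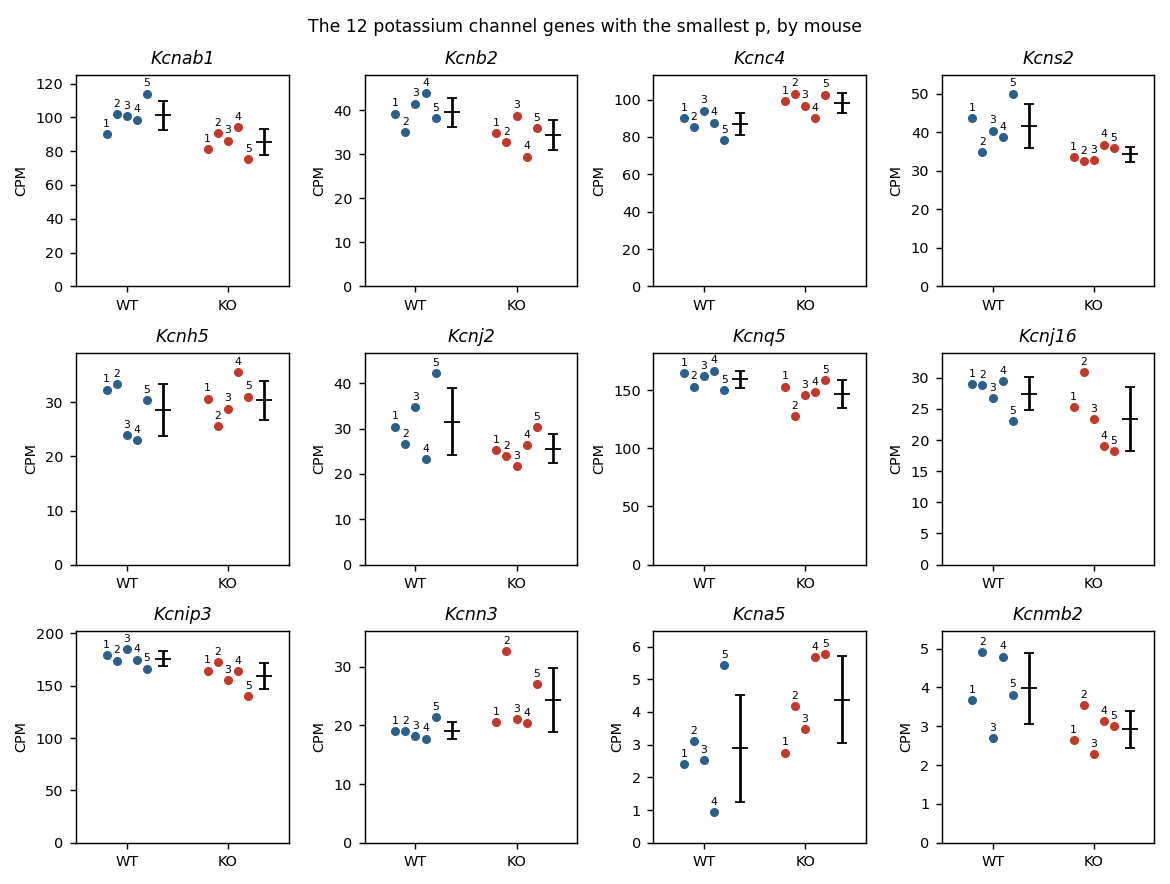
Level in CPM of the 12 potassium channel genes with the smallest p in each of the 5 WT (blue) and 5 KO (red) mice, numbered by replicate, with the mean and SD (black) beside each group. Every axis starts at 0. The genotypes overlap in all 12, with 4 of 5 KO mice above every WT mouse for *Kcnc4* and 4 of 5 below every WT mouse for *Kcnip3*.

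The exact two-sided permutation test of CPM, which uses neither surrogate variables nor a count model, gave a p under 0.05 for 9 of the 77 tested members (11.7%, against 7.52% of all genes tested). Of these, *Kcnab1*, *Kcnc4*, *Kcns2*, *Kcnip3* and *Kcnn3* are among the 12 with the smallest p by edgeR and were named for it, so their exact p is not independent of that choice. The others were *Kcnc1* and *Kcnc2*, and *Kcnt2* and *Kcns3*, which are named after their values were seen, and none of the 9 reached 0.00794. These p-values were not adjusted for the number of genes.

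The 16 genes under the filter were *Kcna7*, *Kcna10*, *Kcne1*, *Kcne2*, *Kcne3*, *Kcnh8*, *Kcnj1*, *Kcnj5*, *Kcnj15*, *Kcnk7*, *Kcnk15*, *Kcnk16*, *Kcnk18*, *Kcnmb3*, *Kcnn4* and *Kcnv2*. *Kcnk16* and *Kcnk18* had 0 counts in all 10 mice. The highest of the others was *Kcnj5*, the GIRK subunit known from the heart and adrenal gland, at 0.223 to 0.557 CPM in KO mice and 0.0860 to 0.265 CPM in WT mice. Its lowest WT value lay within the floor of 0.0586 to 0.0993 CPM, and its genotypes were not compared in the main fit. *Kcnj5* lies on chromosome 9, which also carries *Zbtb16*, as does *Kcnj1*, and the part of this position was not tested.

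The summed CPM of all 93 genes did not overlap between the genotypes, although each of the 77 tested genes did. It was 7019 CPM in KO mice, with a range from 6710 to 7179, and 7307 CPM in WT mice, with a range from 7201 to 7442. The gap was narrow, as KO mice 1, 3 and 4 were at 7137 to 7179 CPM and WT mice 3 and 4 at 7201 and 7206 CPM. KO mice 2 and 5 were lower, at 6898 and 6710 CPM. The sum weighs abundant genes most, and no test was run on it. Markers of interneurons were 6 of 6 detected and none at 0, with 5 of 6 fold changes below 0 and none called by edgeR. They summed to 783 to 859 CPM in KO mice and 832 to 937 CPM in WT mice, with KO mouse 5 the lowest, as it was for the channels. *Vip*, which had the smallest p of the 6 by edgeR, was at 32.5 to 45.4 CPM in KO mice and 45.9 to 51.1 CPM in WT mice, without overlap (exact two-sided permutation p = 0.00794, and adjusted p = 0.189 by edgeR). The other markers overlapped between the genotypes. Log2 fold changes were -0.05 for *Gad1*, -0.03 for *Gad2*, 0.01 for *Slc32a1*, -0.09 for *Sst* and -0.14 for *Pvalb*. Not every neuron list moved this way. Mean sums in KO and WT mice were 7798 and 7353 CPM for excitatory markers, whose sum was highest in KO mouse 5 (8484 CPM). They were 707 and 654 CPM for upper-layer, 371 and 362 CPM for layer 5 and 6 and 395 and 356 CPM for striatal markers. Parvalbumin interneuron markers, at 238 and 265 CPM, went with the interneurons. The part of any of these cells in the sum of the channels was not tested. The median deviation of the 77 tested members from their mean over the 10 mice, on the log2(CPM + 1) scale, was -0.01, -0.05, -0.01, -0.02 and -0.10 in KO mice 1 to 5. In WT mice 1 to 5 it was 0.07, 0.02, 0.02, 0.02 and 0.04, while the median of all genes tested stayed between -0.02 and 0.02 in every mouse. KO mouse 5 was the lowest of the 10 mice for 24 of 77 members and KO mouse 2 for 18. Without KO mouse 5, the log2 fold change was below 0 for 51 of 77 members, and without KO mice 3 and 5 together, an alternative chosen after seeing the data, for 50.

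**Figure D4:**
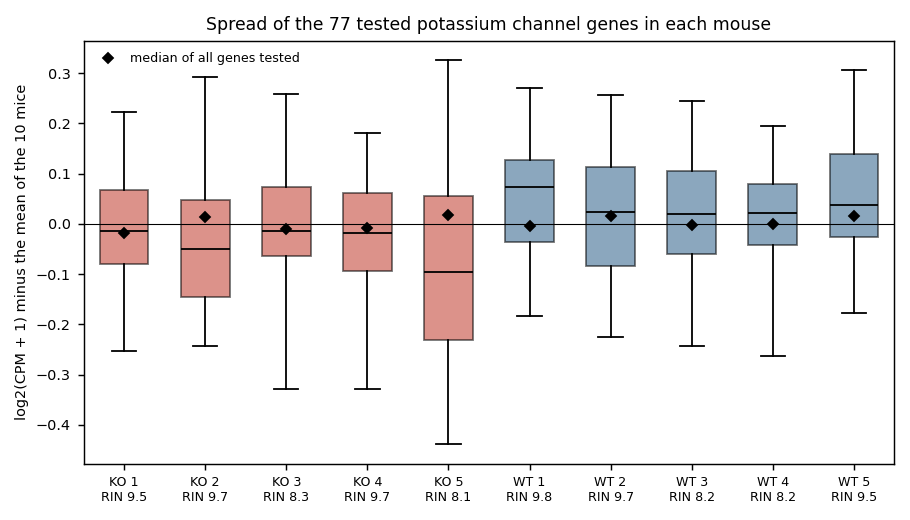
Deviation of the 77 tested potassium channel genes from their mean over the 10 mice in each mouse, as log2(CPM + 1), with KO mice in red and WT mice in blue and the RIN under each. Boxes span the quartiles with the median, whiskers run from the 5th to the 95th percentile, and diamonds are the median of all genes tested. The median of the members is below 0 in the 5 KO mice and above 0 in the 5 WT mice, and lowest in KO mouse 5 at -0.10.

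RNA integrity was balanced between the genotypes. Between the 4 mice with a RIN of 8.3 or lower and the 6 with 9.5 or higher, 4 of 77 members had CPM values without overlap (5.19%, against 2.47% of all genes). They included *Kcnab2*, *Kcns1* and *Kcnab3*, the last of which is named here after its values were seen, and all 4 were lower in the 4 mice. *Kcnab3* was at 63.3 and 51.8 CPM in KO mice 3 and 5 and at 58.3 and 66.8 CPM in WT mice 3 and 4. In the other 6 mice it was at 79.5 to 128 CPM. With RIN in place of the surrogate variables, 0 members were called, against 38 of 14344 genes. In that fit 56 of 77 fold changes were below 0, against 51.3% of all genes. With the 6 mice of high RIN alone, 0 of 76 were called, against 1 of 14345 genes, and 52 were below 0, against 50.6% of all genes. With so few genes called in these fits, the 0 members called say little.

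**Figure D5:**
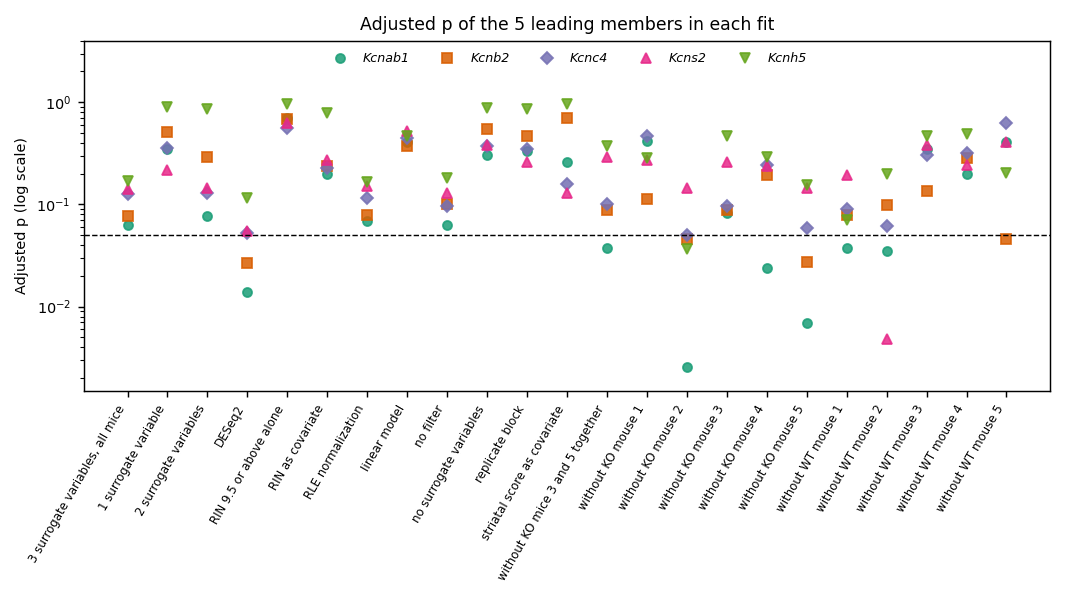
Adjusted p (log axis) of the 5 members with the smallest p in each fit, with the threshold of 0.05 as a dashed line; all fits but those named DESeq2 and linear model are edgeR's quasi-likelihood test. *Kcnab1* lies between 0.00255 and 0.420 in the fits without 1 mouse, and *Kcnc4* is above the line in every fit shown.

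Genes that work with the channels were read from the same fit. Of 33 auxiliary proteins and anchors outside the Kcn symbols, 31 were tested and 0 were called, with 4 higher and 1 lower at an unadjusted p under 0.05 (5.51% and 5.1% of all genes). Over this list and 3 others (HCN channels, G proteins and pumps), 8 of 73 tested genes were higher and 4 lower by that measure. *Dlg1*, a scaffold of Kv1 and Kir2 channels, had a log2 fold change of 0.10 ± 0.03 (SE; adjusted p = 0.187, edgeR's quasi-likelihood test). All 5 genes of the HCN group, the hyperpolarization-activated channels and their subunit, were tested and 0 were called. Of 22 G protein genes that act on GIRK channels, 21 were tested and 0 were called, the smallest p being that of *Gng12*, a gamma subunit, with 0.15 ± 0.04 (SE; adjusted p = 0.0995, edgeR's quasi-likelihood test). *Rgs4*, which ends G protein signals, had 0.12 ± 0.04 (SE; adjusted p = 0.200).

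Of 17 potassium pumps and cotransporters, 16 were tested and 1 was called. Over the 4 lists, 1 of 73 tested genes was called, against 0.844% of all genes, and the median log2 fold change was 0.00.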

How the data were processed

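Total RNA of the PFC was sequenced as stranded mRNA libraries, 1 per mouse. Per the submitters' processing notes, the authors aligned the reads with STAR (2.7.1a) to mm10 and counted unique alignments with HTSeq (0.9.1) on Gencode M21 exons of protein-coding genes. They deposited raw counts for 22000 genes, without normalization. The strand setting is not given in the sources used here, so counts of genes that overlap others are uncertain. Of the potassium channel genes, 5 share exon bases with a protein-coding gene and 28 with any gene.

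From these counts, CPM was computed on library totals. The main test was the quasi-likelihood test of edgeR (4.0.16) under R 4.3.3, after TMM scaling and filterByExpr, on genotype plus 3 surrogate variables that sva (3.50.0) found in log2(CPM + 1). P-values were adjusted by Benjamini-Hochberg over 14344 genes, with 0.05 as threshold. Intervals are 95% intervals from the SE of the fit. Floors of 3 counts cover counting error only, since reads carry no molecular identifiers. Single genes were also compared by exact two-sided permutation tests of CPM in scipy (1.17.1).

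Alternatives were DESeq2 (1.42.0), linear models on log2(CPM + 1), fewer surrogate variables, other covariates, another normalization, no filter, mice of high RIN alone and leaving out each mouse. The scripts were tested on simulated data. Groups and replicate numbers come from the labels, and every pair of libraries differed by more than sampling noise. The labels do not say whether the mice were littermates or processed together. Same-numbered KO and WT mice correlated between -0.107 and 0.171 in their deviations from the group means, so the numbers were not used as pairs.

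The genes named are those with an adjusted p under 0.05, the 12 with the smallest p, those without overlap between genotypes, the most and least abundant of each subfamily and a list of well-known cortical channels. Of the genes that work with the channels, those called and the 4 with the smallest p were eligible. The members, the lists and the tests were chosen with earlier results of these data known. Positions come from Gencode M21 on GRCm38, where 19550 of 22000 symbols were matched directly and 238 by a synonym. Protein sequences were not used here. A few genes that this rule gave are counted in the totals but not reported here singly, nor drawn by name.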

Additional observations from a re-analysis of the deposited data

Results flagged for a closer look

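In 3 of 104 groups of mice (52 genes in each genotype, potassium channel genes and *Zbtb16*), the highest or lowest mouse stood apart from the other 4 by more than the 95% limit of Dixon's test for 5 samples. Chance gives about 1 in 20 such groups. *Kcnk1*, a K2P channel, was at 92.9 CPM in KO mouse 5 and at 120 to 131 CPM in the other KO mice. *Kcnt1*, a sodium-activated channel, was at 150 CPM (149.7) in KO mouse 5, above 130 to 132 CPM in the other KO mice. *Kcnn2*, an SK channel, was at 50.0 CPM in WT mouse 3 and at 43.2 to 44.8 CPM in the other WT mice. KO mouse 5 thus gave 2 of the 3 cases. It had the lowest RIN (8.1) and the largest library (51231439 counts), and the part of either was not tested.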

How the results depend on the processing

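As in the main fit, 0 potassium channel genes were called in all settings with the 10 mice except DESeq2, which called 2 (*Kcnab1* and *Kcnb2*). With as few genes called as in these fits, the 0 members called say little. Without 1 mouse, 0 to 3 members were called, with 3 without KO mouse 2 (*Kcnab1*, *Kcnb2* and *Kcnh5*). Without KO mice 3 and 5 together, an alternative added after seeing the data, 1 was called (*Kcnab1*). The count over all genes, 121, was 34 with 1 surrogate variable, 57 with 2, 30 with none, 38 with RIN and 11 with the striatal score as covariate, 233 with DESeq2, 2 with linear models, 1 in the 6 mice whose RIN was at least 9.5, and 39 (without WT mouse 3) to 248 (without KO mouse 2) without 1 mouse. Of the genes that work with the channels, 1 was called, against 2 with DESeq2, 0 to 2 without 1 mouse, and 0 with 1 or 2 surrogate variables, none, RIN, the striatal score, linear models, mice of high RIN alone or without KO mice 3 and 5. *Zbtb16* kept its direction in every setting, and in the linear model its log2 fold change of -0.67 had an adjusted p of 0.236. The causes were not tested.

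With the replicate number as a block in place of the surrogate variables, 24 genes, 0 potassium channel genes and 0 genes that work with the channels were called. Of the 5 numbers, 2 had the best correlation between their own KO and WT mice (correlations of 0.171, -0.00217, 0.116, -0.107 and 0.0963). With 5 numbers this does not settle whether the mice were paired. Of the 54 members that the naming rule gave, 28 had a fold change of the other sign in at least 1 setting, in no case past the threshold, and among the 12 with the smallest p this was 1. Depth limited the genes under 1 CPM.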
